A study of Mus musculus with 12 samples.

Results

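The genes described are the 36 aminoacyl-tRNA synthetases measured by bulk RNA-seq in cultured neural stem cells (NSCs) of the adult mouse dentate gyrus, chosen by name from the 50600 entries of the deposited gene table. Symbols ending in 2 were taken as the mitochondrial class (16 genes) and the others as the cytosolic class (20 genes). The NSCs, at passage 4 and 75000 cells to a well, first received TFB-TBOA (1 µM), an inhibitor of all excitatory amino acid transporters (panEAAT), or its vehicle for 15 min, and then glutamate (100 µM) or its vehicle for 48 h. The 4 groups were TFBTBOA-Glut, TFBTBOA-Veh, Veh-Glut and Veh-Veh, in which both agents were replaced by vehicle, with 3 wells each. The sources name no genetic change in these cells and do not say that the wells came from separate cultures, so that p-values measure the spread between wells only. The comparisons ask how glutamate changed synthetase transcripts, and whether that depended on glutamate transport.

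Aminoacyl-tRNA synthetases join each amino acid to its own tRNA and so supply the ribosome with charged tRNAs. Cytosolic and mitochondrial translation mostly use separate enzymes, all encoded in the nucleus. Gars and Kars are exceptions whose single genes give both the cytosolic and the mitochondrial enzyme for glycine and lysine. Eprs joins the enzymes for glutamate and proline in a single protein, and Farsa and Farsb are the subunits of the cytosolic phenylalanine enzyme. The products of Dars, Eprs, Iars, Kars, Lars, Mars, Qars and Rars, 8 of the 20 cytosolic genes, sit in the multi-synthetase complex, held together by the scaffold proteins of Aimp1, Aimp2 and Eef1e1. In mitochondria there is no glutaminyl-tRNA synthetase. Ears2 instead loads glutamate on the tRNA for glutamine, and an amidotransferase made from Gatb, Gatc and Qrsl1 converts it. Many cytosolic synthetase genes are known targets of ATF4, the transcription factor of the amino acid response, which binds C/EBP-ATF response elements.

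Normalized counts summed to between 14900486 and 15411418 per library, and 13064545 to 18372691 reads per library were recovered from them. Between 19133 and 21496 genes were above 0 in a library, and replicates correlated at 0.970 to 0.975 across genes. NSC markers were present, with Nes, an intermediate filament of neural precursors, at 25002 to 28881 normalized counts, Slc1a3, the transporter EAAT1, at 28660 to 33235, and Hes5, a Notch target, at only 11.6 to 33.9. Of the markers of other cells, Dcx (newborn neurons) reached at most 17.0, Aqp4 (astrocytes) 9.58, Sox10 (oligodendrocyte lineage) 6.36 and Csf1r (microglia) 9.98, and Cx3cr1 was 0 in all 12 libraries. Some other markers of these cells were higher. The neuronal Tubb3 was at 38.9 to 159, Syt1 at 6.36 to 75.7 and Rbfox3 at 13.7 to 52.5. S100b and Gfap (astrocytes) were at 58.0 to 175 and 23.0 to 88.5, and Pdgfra (oligodendrocyte lineage) at 7.42 to 97.5. The NSC marker Sox2 was itself at only 121 to 273. The astrocyte markers Gja1 and Aldh1l1, which NSCs also express, were at 2716 to 3389 and 2866 to 3792. One library stood apart in genes outside the synthetases: the sum of 5 cytosolic elongation factors was 110657 in TFBTBOA-Glut replicate 2 against 76279 to 82739 in the other 11.

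Promoter sequences were examined because many cytosolic synthetase genes are known targets of the amino acid response. RefSeq windows of 300 bases (250 before the start of transcription and 50 from it, GRCm38.p6) matched 27 of the 36 members, 13 cytosolic and 14 mitochondrial. Windows for Cars, Hars, Lars, Nars, Rars, Vars, Wars, Hars2 and Pars2 were not matched. The motif TGATGNAA, the core of the C/EBP-ATF response element, was searched on both strands. It stood in 5 of the 13 cytosolic windows (38.5%), those of Aars, Gars, Iars, Tars and Yars, in 0 of the 14 mitochondrial members and in 3.97% of all 32851 windows. The stricter TGATGCAA, every match of which is also a match of TGATGNAA, stood in 4 of 13 cytosolic windows and in 0.895% of all windows. The 5 windows are given 5′ to 3′ on the strand of the gene, with the motif in capitals, as its reverse complement where it lies on the other strand. A match is a description of these letters and not a shown binding site.
Aars, chr8:111033592-111033891, plus strand: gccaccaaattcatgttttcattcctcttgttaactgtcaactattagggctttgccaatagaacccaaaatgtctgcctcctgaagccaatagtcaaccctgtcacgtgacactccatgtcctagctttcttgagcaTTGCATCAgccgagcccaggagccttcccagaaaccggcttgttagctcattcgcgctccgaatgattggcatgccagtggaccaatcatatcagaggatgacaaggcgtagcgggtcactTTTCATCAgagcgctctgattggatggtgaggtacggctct
Gars, chr6:55037751-55038050, plus strand: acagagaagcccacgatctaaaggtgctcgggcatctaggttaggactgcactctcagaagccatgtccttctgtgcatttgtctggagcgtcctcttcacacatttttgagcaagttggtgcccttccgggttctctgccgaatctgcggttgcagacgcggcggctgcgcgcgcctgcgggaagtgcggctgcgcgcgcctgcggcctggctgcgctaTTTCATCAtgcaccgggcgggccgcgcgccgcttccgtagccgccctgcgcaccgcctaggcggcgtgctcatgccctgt
Iars, chr13:49681880-49682179, plus strand: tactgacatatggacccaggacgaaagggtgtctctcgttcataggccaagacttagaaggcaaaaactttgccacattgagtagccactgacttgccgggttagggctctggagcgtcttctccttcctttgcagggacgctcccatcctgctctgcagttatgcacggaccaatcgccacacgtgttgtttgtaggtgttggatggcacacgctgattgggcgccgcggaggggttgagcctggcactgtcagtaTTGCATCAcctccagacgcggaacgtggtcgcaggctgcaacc
Tars, chr15:11399609-11399908, minus strand: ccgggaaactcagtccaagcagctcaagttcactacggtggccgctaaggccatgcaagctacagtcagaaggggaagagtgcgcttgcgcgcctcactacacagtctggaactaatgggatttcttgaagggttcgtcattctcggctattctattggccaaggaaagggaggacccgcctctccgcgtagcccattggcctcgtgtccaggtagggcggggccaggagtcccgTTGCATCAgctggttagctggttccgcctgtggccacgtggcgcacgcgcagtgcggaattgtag
Yars, chr4:129189653-129189952, plus strand: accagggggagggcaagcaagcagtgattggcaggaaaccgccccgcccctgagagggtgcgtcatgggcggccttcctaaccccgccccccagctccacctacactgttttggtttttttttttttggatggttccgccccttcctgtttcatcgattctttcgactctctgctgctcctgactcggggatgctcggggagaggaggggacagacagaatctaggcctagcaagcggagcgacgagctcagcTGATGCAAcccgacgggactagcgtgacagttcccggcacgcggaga

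Counting the start of transcription as base 1, the Aars window held a match that began 112 bases before the start and another at base 10. The match began 30 bases before the start in Gars and 15 before it in Tars, and at base 8 in Iars and base 4 in Yars. All 6 matches read on the reverse strand of the gene except that of Yars.

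Transcript levels in Veh-Veh NSCs differed between the classes. All members passed the filter of a mean of at least 10 normalized counts over the 12 libraries. Genes were compared per kb of annotated exon, with the exons of all annotated transcripts of a gene merged. Which transcripts the NSCs used was not determined, so that the order of genes and the ratios between them depend in part on the annotation. The cytosolic class in Veh-Veh had a median of 654 normalized counts per kb and ran from 135 for Qars (glutamine) to 2003 for Gars (glycine). The mitochondrial class had a median of 108 per kb and ran from 25.2 for Wars2 (tryptophan) to 292 for Rars2 (arginine). Qars, at rank 25 of 36, was the one cytosolic gene that lay below some mitochondrial genes on this scale. After Gars followed Vars (valine, 1412 per kb), Mars (methionine, 1214), Nars (asparagine, 1132) and Kars (lysine, 975). For the 16 amino acids with a gene in both classes, which give 17 pairs because Farsa and Farsb share Fars2 and Eprs was set beside both Ears2 and Pars2, the cytosolic gene was the higher per kb in all 17, by 2.05-fold for Yars over Yars2 up to 37.5-fold for Wars over Wars2 (median 6.09-fold). The spread between replicates was smaller in the cytosolic class. The coefficient of variation within groups was 3.96% to 9.72% for cytosolic genes (median 5.82%) and 5.68% to 23.4% for mitochondrial genes (median 12.9%), against a median of 14.4% over all 14266 genes that passed the filter.

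Gene positions are from GENCODE M21 (GRCm38). Annotated exons of 13 members, 6 cytosolic and 7 mitochondrial, overlap another gene, from 0.505% of the exon bases of Yars to 24.2% of those of Iars2. Gars lies at chr6:55038007-55079500 (plus strand), Lars at chr18:42202298-42262194 (minus), Mars at chr10:127296221-127311786 (minus), Qars at chr9:108507706-108515941 (plus), Yars at chr4:129189760-129219607 (plus) and Ears2 at chr7:122037213-122067263 (minus). Hars and Hars2 lie on opposite strands of chromosome 18 and share 195 exon bases, and Mars shares 68 with Ddit3 on the opposite strand. The kit did not mark the strand, so that reads in such stretches cannot be assigned to one gene.

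Over the 4 groups, the cytosolic synthetases were highest in NSCs given glutamate without the inhibitor. Summed over the 20 cytosolic genes, TFBTBOA-Glut libraries held 68860, 66527 and 69596 normalized counts and TFBTBOA-Veh libraries 67595, 69404 and 68491. The cytosolic sum was 86828, 96107 and 89492 in Veh-Glut libraries and 74548, 77121 and 72872 in Veh-Veh libraries. All 3 Veh-Glut libraries lay above the other 9, the Veh-Veh libraries came next, and both inhibitor groups lay lowest and overlapped each other. The cytosolic mean of Veh-Glut differed from that of Veh-Veh by 21.3%, and that of TFBTBOA-Glut from that of Veh-Glut by -24.8%. Summed over the 16 mitochondrial genes, the groups differed less, with 9431 ± 421 in TFBTBOA-Glut, 9562 ± 144 in TFBTBOA-Veh, 10986 ± 577 in Veh-Glut and 10065 ± 361 in Veh-Veh (mean ± SD, n = 3). Mitochondrial sums of Veh-Glut libraries (10423 to 11577) overlapped those of Veh-Veh (9813 to 10478), and lay above those of TFBTBOA-Glut (9030 to 9869). The cytosolic sum was 7.05 to 7.37 times the mitochondrial sum in TFBTBOA-Glut, 7.14 to 7.19 times in TFBTBOA-Veh, 8.17 to 8.33 times in Veh-Glut and 6.95 to 7.86 times in Veh-Veh. In bulk RNA, a shift in the mix of cell states and a change of RNA within each cell cannot be told apart. Other lists also had all Veh-Glut libraries on one side of the other 9. The sum of 8 mitosis genes was 31724 to 32445 in TFBTBOA-Glut, 29186 to 32462 in TFBTBOA-Veh, 38577 to 39208 in Veh-Glut and 35103 to 37059 in Veh-Veh. The sum of 7 NSC markers was lowest in Veh-Glut, at 107814 to 113278 in TFBTBOA-Glut, 105947 to 110992 in TFBTBOA-Veh, 99624 to 102798 in Veh-Glut and 107061 to 110123 in Veh-Veh. The sum of 5 astrocyte markers, of which Aqp4 was below 10, was highest in Veh-Glut, at 6093 to 6279 in TFBTBOA-Glut, 6049 to 6630 in TFBTBOA-Veh, 6731 to 7333 in Veh-Glut and 6027 to 6619 in Veh-Veh. The lists and markers not named here had no such separation. The part of the named lists in the synthetase values was not tested.

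**Figure D1:**
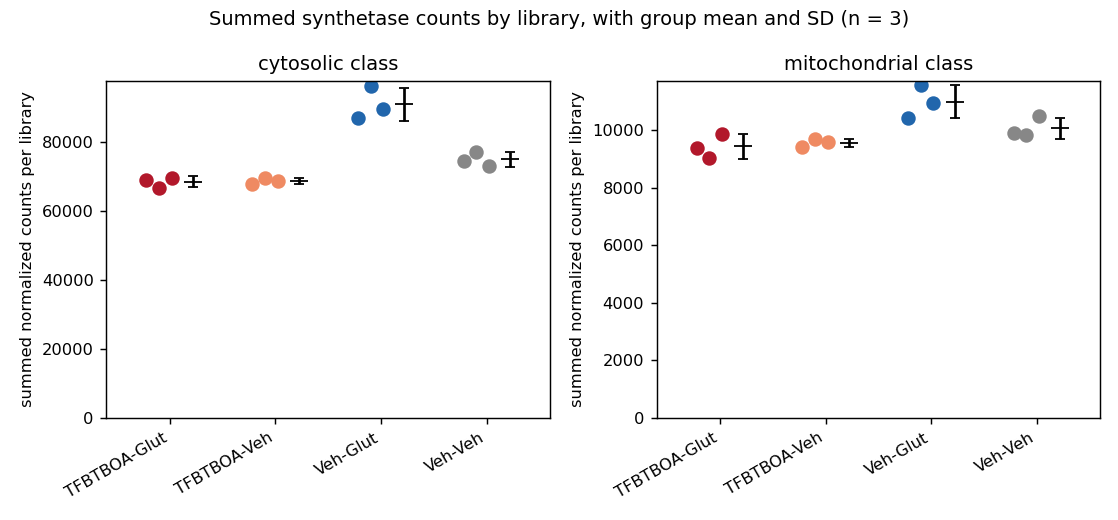
Summed normalized counts of the 20 cytosolic (left) and 16 mitochondrial (right) synthetase genes, with 1 point per library and the group mean with SD (n = 3) beside it; both vertical axes start at 0. The 3 cytosolic Veh-Glut points, from 86828 to 96107, lie above the other 9.

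Gene by gene, Veh-Glut had the highest mean of the 4 groups in 17 of 20 cytosolic members and 11 of 16 mitochondrial members, against 30.6% of all genes tested. In 12 of 20 cytosolic members (Aars, Cars, Dars, Eprs, Gars, Iars, Lars, Mars, Nars, Sars, Vars and Yars) every Veh-Glut library was above all 9 others, which held in 2.96% of all genes. The same held in 2 of 16 mitochondrial members, Ears2 and Mars2. Qars alone among the 36 had the reverse order, with every Veh-Glut library below the 9 others, which held in 2.22% of all genes.

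**Figure D2:**
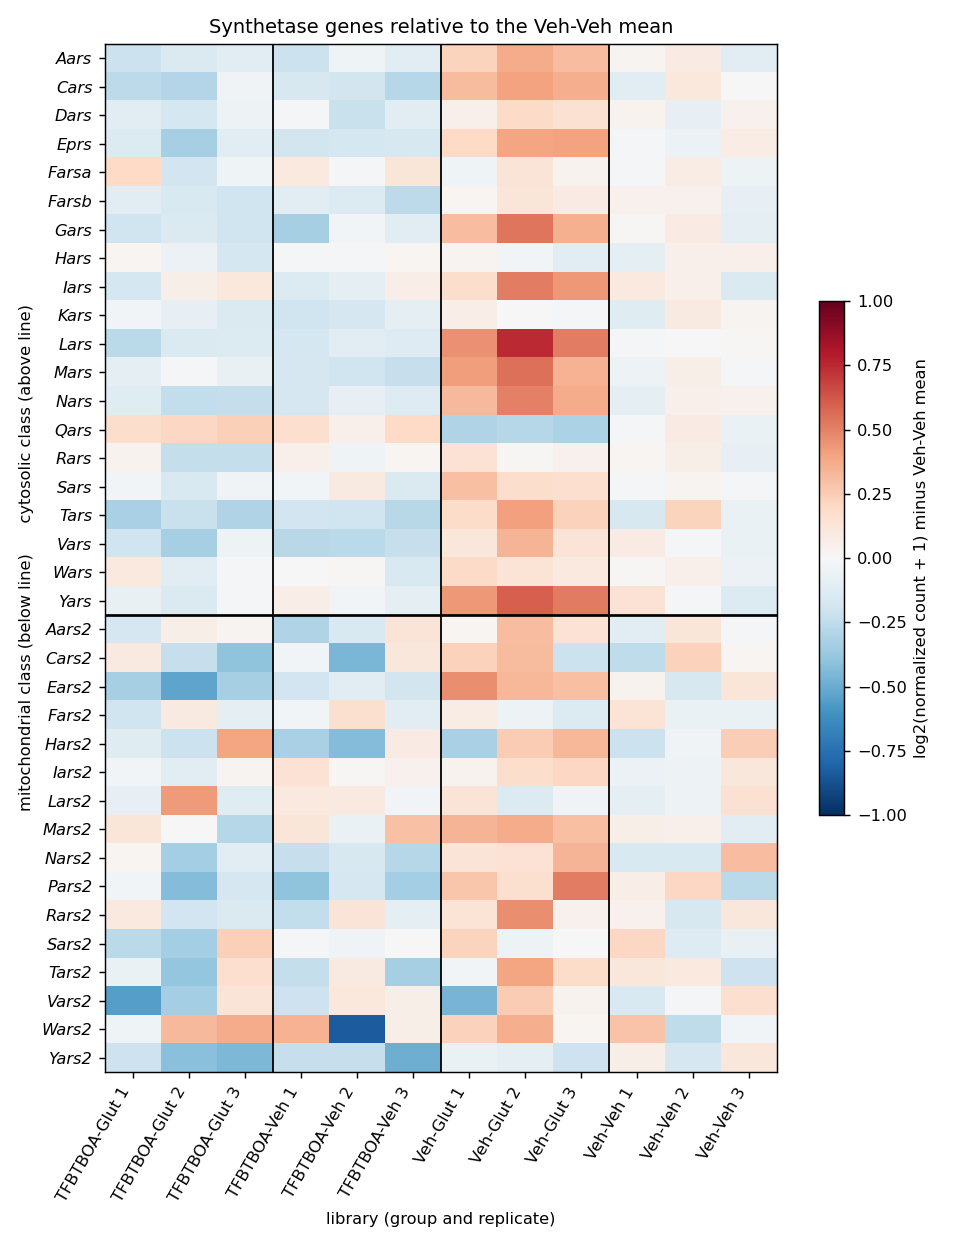
Each cell is log2(normalized count + 1) of a gene in a library minus the mean of that gene over the 3 Veh-Veh libraries, with the 4 groups in columns and the cytosolic class above the line. Most cytosolic rows are red in the 3 Veh-Glut columns, Qars is blue there, and mitochondrial rows differ more between replicates.

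Glutamate without the inhibitor raised 3 cytosolic synthetase transcripts, Lars, Mars and Yars, in the limma test over all genes (log2(normalized count + 1), Benjamini-Hochberg adjusted p under 0.05). No cytosolic member fell, and no mitochondrial member passed. Over all 14266 genes, 0.133% rose and 0.0280% fell. Lars, the leucine enzyme, had 4273, 5218 and 4443 normalized counts in Veh-Glut wells, against 3095, 3117 and 3143 in Veh-Veh wells. The lowest Veh-Glut well was above the highest Veh-Veh well, and Veh-Veh wells differed by little. The log2 fold change of Lars was 0.57 (SE 0.082, adjusted p = 0.0330, limma), a level 48.4% higher. Yars, the tyrosine enzyme, had 3976, 4471 and 4226 in Veh-Glut wells, against 3258, 2930 and 2689 in Veh-Veh wells, with no overlap, and rose by 0.52 (SE 0.084, adjusted p = 0.0423, limma). Mars, the methionine enzyme, had 5535, 6071 and 5285 in Veh-Glut wells, against 4012, 4329 and 4126 in Veh-Veh wells. These groups also did not overlap, and the log2 fold change of Mars was 0.44 (SE 0.071, adjusted p = 0.0423, limma).

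Further cytosolic members had larger values with glutamate in every well without passing this threshold. In 13 of 20 cytosolic members and 2 of 16 mitochondrial members all Veh-Glut wells were above all Veh-Veh wells, against 7.58% of all genes, and in Qars all were below, against 6.79%. Gars had 7741, 9046 and 7976 in Veh-Glut wells, against 6286, 6618 and 5841 in Veh-Veh wells (log2 fold change 0.40, adjusted p = 0.0711, limma). Nars had 6180, 6994 and 6355 in Veh-Glut wells, against 4607, 5114 and 5070 in Veh-Veh wells (log2 fold change 0.40, adjusted p = 0.0653, limma). Both genes thus missed the threshold with groups that did not overlap. DESeq2 on the recovered reads called 9 cytosolic members higher (Aars, Cars, Eprs, Gars, Iars, Lars, Mars, Nars and Yars) and none lower, against 0.736% higher and 0.393% lower of all genes. edgeR called the same 3 as limma, and the share of all genes that it called is not given here. The limma calls became 0 with no filter on low values, and also 0 with the replicate number as a block in the fit. They depended on single libraries as well: none of the 3 passed in fits that lacked any one of the Veh-Veh libraries or lacked the second or the third Veh-Glut library. Without Veh-Glut replicate 1, 8 cytosolic members were called.

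The median log2 fold change for glutamate without the inhibitor was 0.25 in the cytosolic class, with 18 of 20 members positive, and 0.15 in the mitochondrial class, with 12 of 16 positive, while the median over all genes tested was 0.0001 and 7135 of 14266 were positive. An unadjusted p under 0.05 was reached by 13 of 20 cytosolic and 2 of 16 mitochondrial members, against 1356 of 14266 genes. In the mitochondrial class edgeR and DESeq2 also called 0. Mars2, the mitochondrial methionine enzyme, had the smallest p, with 538, 551 and 525 in Veh-Glut wells, against 443, 441 and 394 in Veh-Veh wells (log2 fold change 0.34, SE 0.12, adjusted p = 0.419, limma). Ears2 had 515, 467 and 459 in Veh-Glut wells, against 380, 333 and 405 in Veh-Veh wells (log2 fold change 0.37, SE 0.13, adjusted p = 0.432, limma). Neither gene's groups overlapped. Of the cytosolic members without a call, Hars, Kars, Farsa, Rars and Farsb had the values nearest 0, from -0.04 for Hars to 0.07 for Farsb.

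**Figure D3:**
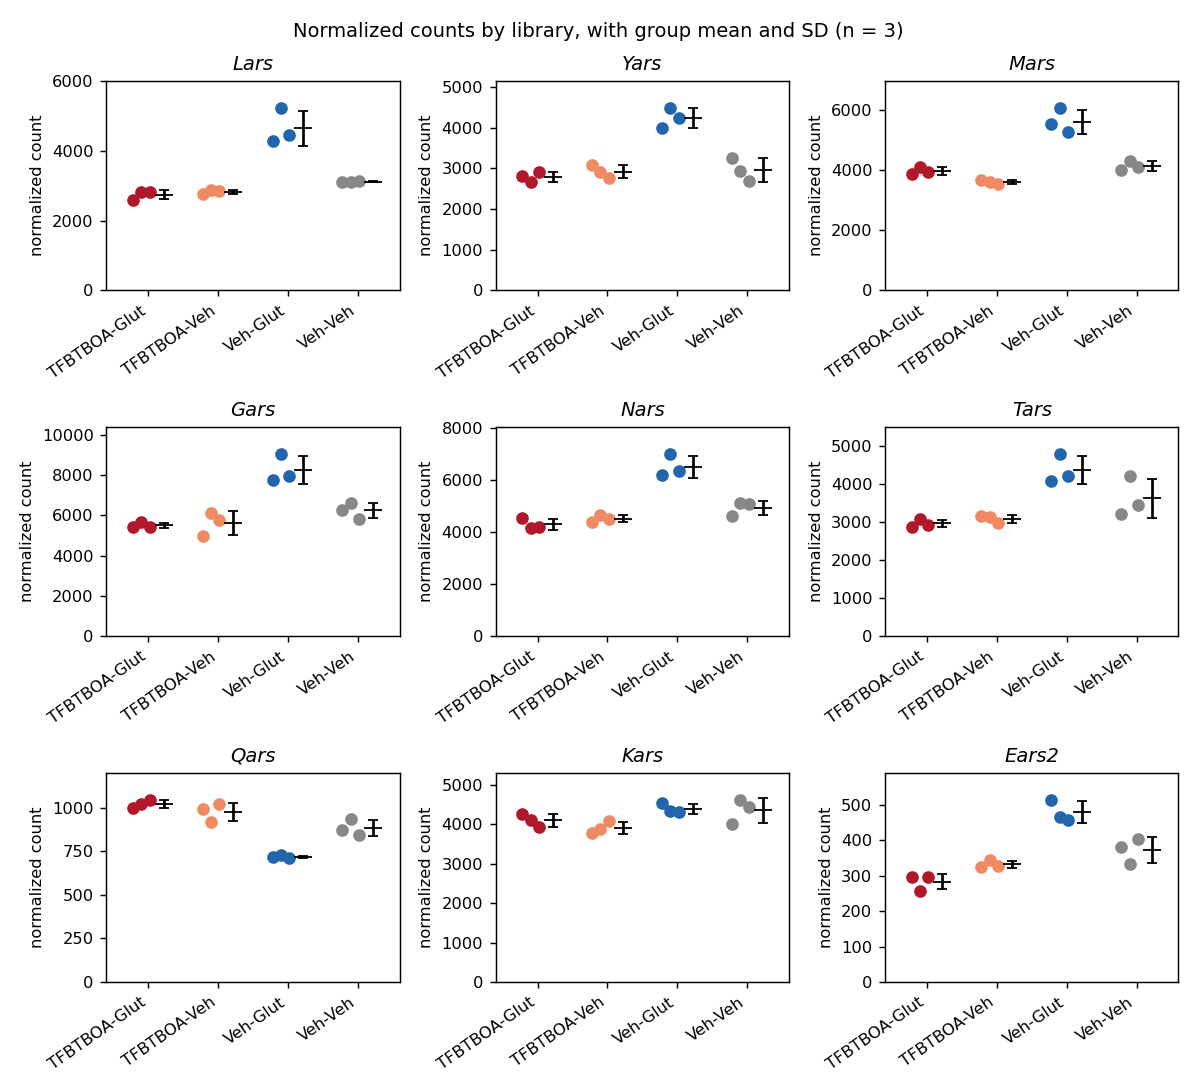
Normalized counts of 9 synthetase genes in each library (points), with the group mean and SD (n = 3) to the right of the points and every vertical axis starting at 0. Lars, Yars, Mars, Gars, Nars and Ears2 are highest in Veh-Glut, Qars is lowest there at 709 to 725, and Kars overlaps between Veh-Glut and Veh-Veh.

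With the inhibitor present, glutamate changed no synthetase transcript past the threshold. limma called 0 of the 36 members, as it called 0% of all genes, and no member had an unadjusted p under 0.05, which 537 of all genes had. edgeR called 0 of the 36 as well, and so did DESeq2, with 0% of all genes higher and 0.00701% lower. The median log2 fold change of TFBTBOA-Glut over TFBTBOA-Veh was -0.02 in the cytosolic class and -0.03 in the mitochondrial class. Lars had 2588, 2823 and 2831 in TFBTBOA-Glut wells, against 2754, 2880 and 2844 in TFBTBOA-Veh wells, and Yars had 2809, 2662 and 2910 in TFBTBOA-Glut wells, against 3091, 2899 and 2767 in TFBTBOA-Veh wells. Both genes overlapped between the groups, with log2 fold changes of -0.04 (SE 0.079) and -0.06 (SE 0.082). Groups did not overlap in 1 member of each class, against 8.96% of all genes in either direction. Mars had 3887, 4130 and 3935 in TFBTBOA-Glut wells, against 3693, 3620 and 3534 in TFBTBOA-Veh wells, which puts every TFBTBOA-Glut well above (log2 fold change 0.14, SE 0.072, adjusted p = 1.00, limma). Ears2 had 296, 258 and 296 in TFBTBOA-Glut wells, against 326, 344 and 327 in TFBTBOA-Veh wells, which puts every TFBTBOA-Glut well below (log2 fold change -0.23, SE 0.15, adjusted p = 1.00, limma).

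Under glutamate, the inhibitor lowered 10 of 20 cytosolic synthetases (Aars, Cars, Eprs, Gars, Lars, Mars, Nars, Tars, Vars and Yars), raised 1, Qars, and lowered 1 of 16 mitochondrial synthetases, Ears2. Over all genes, limma called 0.953% lower and 1.23% higher. This comparison of TFBTBOA-Glut with Veh-Glut uses the same Veh-Glut libraries as the comparison of Veh-Glut with Veh-Veh, so that a high Veh-Glut value enters both. In 15 of 20 cytosolic and 6 of 16 mitochondrial members all TFBTBOA-Glut wells were below all Veh-Glut wells, against 12.0% of all genes, and Qars was above in all, against 11.2%.

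Of the called complex enzymes, Lars moved most, with 2588, 2823 and 2831 in TFBTBOA-Glut wells, against 4273, 5218 and 4443 in Veh-Glut wells. The TFBTBOA-Glut wells lay well below all Veh-Glut wells, and the log2 fold change was -0.75 (SE 0.093, adjusted p = 0.00295, limma). Eprs, which serves glutamate itself and proline, had 5829, 5102 and 5938 in TFBTBOA-Glut wells, against 7352, 8413 and 8460 in Veh-Glut wells, and fell by 0.52 (SE 0.086, adjusted p = 0.0120, limma). Mars had 3887, 4130 and 3935 in TFBTBOA-Glut wells, against 5535, 6071 and 5285 in Veh-Glut wells, and fell by 0.50 (SE 0.079, adjusted p = 0.00948, limma). No well of one group reached the other in these 3 genes. The other complex enzymes did not pass in the same direction: Iars (isoleucine), Kars (lysine), Dars (aspartate) and Rars (arginine) had log2 fold changes of -0.38, -0.10, -0.24 and -0.21 with adjusted p of 0.0902 to 0.498 (limma).

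Qars, the glutamine enzyme and also a complex subunit, had 1000, 1022 and 1044 normalized counts in TFBTBOA-Glut wells, against 717, 725 and 709 in Veh-Glut wells. The groups were far apart relative to their spread, and Qars rose by 0.51 (SE 0.10, adjusted p = 0.0260, limma), a level 42.5% higher. Its values were 991, 915 and 1018 in TFBTBOA-Veh wells, against 874, 935 and 845 in Veh-Veh wells, which overlap. Under glutamate without the inhibitor the log2 fold change of Qars was -0.30 (SE 0.10, adjusted p = 0.391, limma).

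Outside the complex, 7 of the 12 cytosolic enzymes fell under glutamate with the inhibitor, and none rose. Nars had 4540, 4150 and 4186 in TFBTBOA-Glut wells, against 6180, 6994 and 6355 in Veh-Glut wells (log2 fold change -0.60, SE 0.079, adjusted p = 0.00363, limma). Yars had 2809, 2662 and 2910 in TFBTBOA-Glut wells, against 3976, 4471 and 4226 in Veh-Glut wells (log2 fold change -0.60, SE 0.081, adjusted p = 0.00412, limma). The asparagine and the tyrosine enzyme thus fell by about the same amount, each with all TFBTBOA-Glut wells lowest. Gars had 5439, 5654 and 5449 in TFBTBOA-Glut wells, against 7741, 9046 and 7976 in Veh-Glut wells (log2 fold change -0.58, SE 0.077, adjusted p = 0.00372, limma). Tars, the threonine enzyme, had 2882, 3079 and 2930 in TFBTBOA-Glut wells, against 4093, 4786 and 4215 in Veh-Glut wells (log2 fold change -0.56, SE 0.085, adjusted p = 0.00801, limma). Both are among the genes whose promoter windows are printed above, and neither overlapped between groups.

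Cars, the cysteine enzyme, had 1754, 1720 and 2058 in TFBTBOA-Glut wells, against 2618, 2782 and 2712 in Veh-Glut wells, and fell by 0.56 (SE 0.094, adjusted p = 0.0135, limma). Aars, the alanine enzyme, had 6330, 6631 and 6787 in TFBTBOA-Glut wells, against 8591, 9484 and 9108 in Veh-Glut wells, and fell by 0.46 (SE 0.070, adjusted p = 0.00801, limma). In both genes the highest TFBTBOA-Glut well was below the lowest Veh-Glut well. Vars, the valine enzyme, stood at the threshold, with 6909, 6274 and 7619 in TFBTBOA-Glut wells, against 8551, 10031 and 8674 in Veh-Glut wells (log2 fold change -0.39, SE 0.090, adjusted p = 0.0499, limma), and edgeR did not call it. Sars (serine, -0.29), Farsb (-0.23), Wars (tryptophan, -0.15), Farsa (-0.05) and Hars (histidine, -0.03) did not pass.

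In the mitochondrial class, Ears2 had 296, 258 and 296 in TFBTBOA-Glut wells, against 515, 467 and 459 in Veh-Glut wells. No wells overlapped, and Ears2 fell by 0.76 (SE 0.14, adjusted p = 0.0187, limma), a change in level of -41.0%. Pars2, the mitochondrial proline enzyme, had 278, 209 and 251 in TFBTBOA-Glut wells, against 343, 315 and 402 in Veh-Glut wells (log2 fold change -0.52, SE 0.17, adjusted p = 0.131, limma). Mars2 had 463, 423 and 350 in TFBTBOA-Glut wells, against 538, 551 and 525 in Veh-Glut wells (log2 fold change -0.39, SE 0.14, adjusted p = 0.166, limma). Pars2 and Mars2 did not pass although their wells did not overlap. Lars2 (leucine) and Wars2 were the 2 mitochondrial members with a positive value, 0.09 and 0.01.

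The class medians under glutamate, TFBTBOA-Glut over Veh-Glut, were -0.38 for cytosolic and -0.22 for mitochondrial members, with 19 of 20 and 14 of 16 negative, beside a median of 0.01 over all genes. An unadjusted p under 0.05 was reached by 15 cytosolic and 4 mitochondrial members, against 2613 of 14266 genes. DESeq2 called 12 cytosolic members lower, adding Iars and Sars, with Qars higher and Ears2 lower, against 3.04% lower and 2.99% higher of all genes. edgeR called 9 cytosolic members lower, with Qars higher and Ears2 lower, and its share over all genes is not given here. With no filter on low values 1 cytosolic member and no mitochondrial member were called by limma. Without Veh-Glut replicate 2, or without TFBTBOA-Glut replicate 1, limma called 4 cytosolic members, all lower, and without Veh-Glut replicate 3 it called 6. Without TFBTBOA-Glut replicate 2, the library apart in elongation factors, 9 cytosolic members were called. Qars and Ears2 were each lost without Veh-Glut replicate 2 or 3 or TFBTBOA-Glut replicate 1 or 2.

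**Figure D4:**
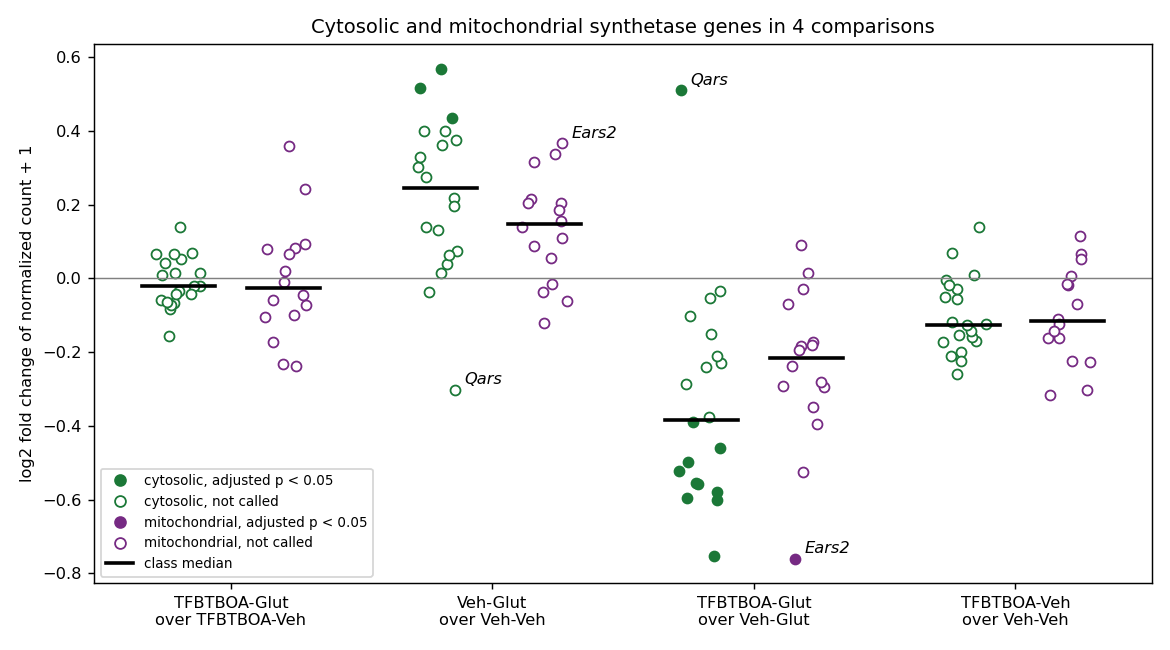
Log2 fold change of each synthetase gene (points; filled where adjusted p is under 0.05 in limma) in 4 comparisons, by class, with the class median as a bar. Filled points are in 2 comparisons, with 3 cytosolic genes higher in Veh-Glut than in Veh-Veh, and 10 cytosolic genes and Ears2 lower and Qars higher for TFBTBOA-Glut over Veh-Glut.

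Without glutamate, the inhibitor changed no member past the threshold, while limma called 0.925% of all genes higher and 0.105% lower. The median log2 fold change of TFBTBOA-Veh over Veh-Veh was -0.13 in the cytosolic class and -0.12 in the mitochondrial class, with 17 of 20 and 12 of 16 negative. An unadjusted p under 0.05 was reached by 5 cytosolic members and 1 mitochondrial member, against 1633 of 14266 genes. Vars came nearest, with 6536, 6559 and 6729 in TFBTBOA-Veh wells, against 8375, 7832 and 7552 in Veh-Veh wells (log2 fold change -0.26, SE 0.057, adjusted p = 0.0598, limma). DESeq2 called Vars alone of the 36 (adjusted p = 0.00476), with 1.93% of all genes higher and 0.505% lower, and edgeR called none. In the mitochondrial class Yars2, the tyrosine enzyme, had 651, 650 and 543 in TFBTBOA-Veh wells, against 794, 679 and 823 in Veh-Veh wells (log2 fold change -0.32, SE 0.12, adjusted p = 0.339, limma). Both had all TFBTBOA-Veh wells below all Veh-Veh wells. So did 7 cytosolic members in all (Cars, Eprs, Farsb, Lars, Mars, Tars and Vars) and 2 mitochondrial members (Nars2 and Yars2), against 7.74% of all genes, and no member was above in all wells, against 9.03%.

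The difference between the glutamate effect with and without the inhibitor was tested over all 12 libraries. No member passed in limma, and 0.0140% of all genes did. An unadjusted p under 0.05 was reached by 12 cytosolic and 2 mitochondrial members, against 991 of 14266 genes. The value was negative, that is, the glutamate effect was lower with the inhibitor, in 18 of 20 cytosolic members (median -0.28) and 12 of 16 mitochondrial members (median -0.14), while 49.7% of all genes had a positive value. Lars had the smallest p (difference -0.61 on the log2 scale, SE 0.11, adjusted p = 0.110, limma), before Yars (-0.58, SE 0.11, adjusted p = 0.117) and Nars (-0.47, SE 0.098, adjusted p = 0.139). Ears2 had the smallest p of the mitochondrial class (-0.60, SE 0.18, adjusted p = 0.470, limma). DESeq2 on the recovered reads called Lars (adjusted p = 0.000435), Yars (0.00290) and Nars (0.00562) lower, against 0.266% of all genes lower and 0.105% higher, and no mitochondrial member, while edgeR called 0 of the 36. Whether the glutamate effect of Lars, Yars and Nars differed with the inhibitor thus depended on the test, and for the other members no tool run showed a difference.

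The enzymes of both classes were also set beside each other for the same amino acid, in 17 pairs. For TFBTBOA-Glut over Veh-Glut the cytosolic value was the more negative in 13 of 17 pairs, the exceptions being Hars, Rars and both pairs of Eprs. For Veh-Glut over Veh-Veh, which shares the Veh-Glut libraries, it was the more positive in 13 of 17, the exceptions being Hars, Rars, Wars and the pair of Eprs with Ears2. In the comparisons without Veh-Glut the cytosolic value was the larger in size in 4 of 17 pairs for TFBTBOA-Glut over TFBTBOA-Veh and in 10 of 17 for TFBTBOA-Veh over Veh-Veh. The difference between the members of a pair was not tested.

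Leucine gave the widest gap under TFBTBOA-Glut against Veh-Glut, with log2 fold changes of -0.75 for Lars and 0.09 for Lars2. Lars2 had 690, 979 and 669 in TFBTBOA-Glut wells, against 798, 661 and 711 in Veh-Glut wells, and its value was -0.09 without TFBTBOA-Glut replicate 2, its highest well. For TFBTBOA-Glut over Veh-Glut, the enzymes that load glutamate had -0.52 (Eprs) and -0.76 (Ears2). Those for methionine had -0.50 (Mars) and -0.39 (Mars2), and those for proline, Eprs and Pars2, both had -0.52. Standard errors were 0.070 to 0.11 for cytosolic members and 0.091 to 0.21 for mitochondrial members, whose counts were lower.

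**Figure D5:**
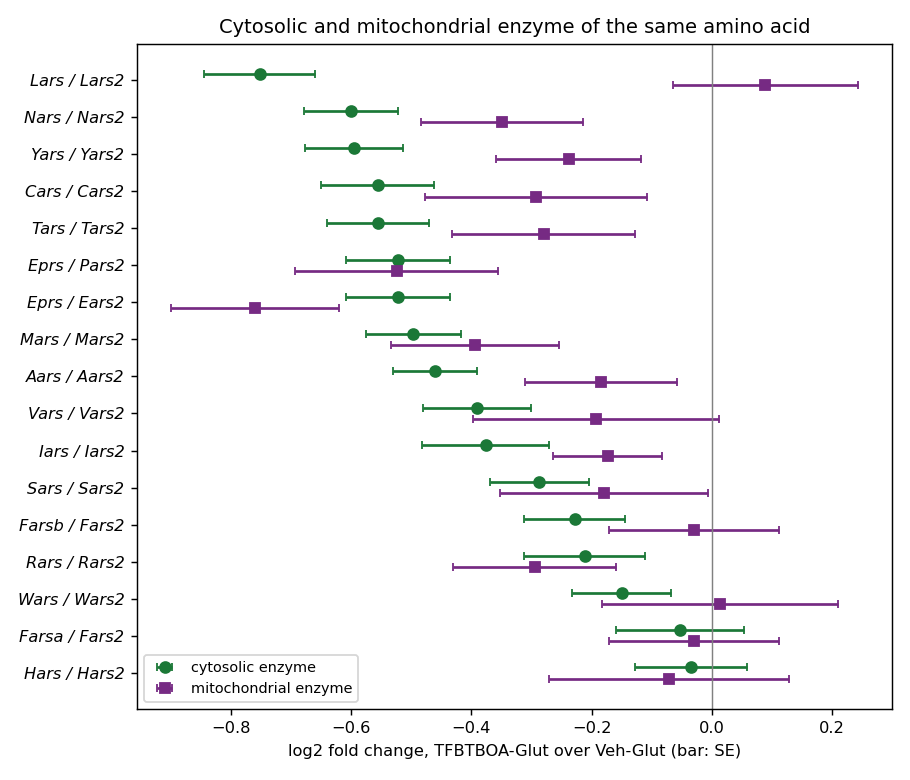
Log2 fold change of TFBTBOA-Glut over Veh-Glut for the cytosolic (circle) and mitochondrial (square) enzyme of the same amino acid, with bars for 1 SE, ordered by the cytosolic value. Lars, at -0.75, and Lars2, at 0.09, lie farthest apart.

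The 5 genes whose windows hold the motif (Aars, Gars, Iars, Tars and Yars) had a median log2 fold change of 0.37 for Veh-Glut over Veh-Veh, and 1 of them was called. Of all genes, 0.133% were called higher. The 8 cytosolic genes with a window and no match had a median of 0.10 with 1 called, and the 7 without a window 0.20 with 1 called. For TFBTBOA-Glut over Veh-Glut the medians were -0.56 with 4 of 5 called lower, -0.24 with 2 of 8 called lower (and Qars higher) and -0.39 with 4 of 7 called lower, beside 0.953% of all genes called lower and 1.23% higher. Mars and Eprs were called lower without a match in their windows. By complex membership, TFBTBOA-Glut over Veh-Glut had a median of -0.31 over the 8 complex genes and -0.43 over the 12 others.

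Genes around the synthetases were counted by 10 lists, and 7 of these, with 49 genes, had no call by limma in any comparison. Over all genes, limma called 0.953% lower and 1.23% higher for TFBTBOA-Glut over Veh-Glut. For Veh-Glut over Veh-Veh it called 0.133% higher and 0.0280% lower. At such shares, the absence of a call among 49 genes says little about these lists. For TFBTBOA-Glut over Veh-Glut 1 of the 49 had an unadjusted p under 0.05, against 2613 of 14266 genes. For Veh-Glut over Veh-Veh 0 of 49 did, against 1356 of 14266. edgeR and DESeq2 also called 0 of 49 in every comparison. For TFBTBOA-Glut over Veh-Glut, DESeq2 called 3.04% of all genes lower and 2.99% higher. For TFBTBOA-Glut over TFBTBOA-Veh 1 of the 49 had an unadjusted p under 0.05, against 537 of 14266 genes. For TFBTBOA-Veh over Veh-Veh 3 did, against 1633 of 14266. For the difference between glutamate effects 2 did, against 991 of 14266.

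Among the lists without a call, the 3 scaffold genes of the complex had log2 fold changes for TFBTBOA-Glut over Veh-Glut between those of Eef1e1 (-0.18) and Aimp1 (0.14). Aimp2 averaged 568 ± 40.3 in TFBTBOA-Glut, 587 ± 36.5 in TFBTBOA-Veh, 551 ± 44.8 in Veh-Glut and 633 ± 20.8 in Veh-Veh (mean ± SD, n = 3). No comparison of Aimp2, Aimp1 or Eef1e1 passed. In TFBTBOA-Glut against Veh-Glut 3 of the 8 complex enzymes fell and 1 rose, against 0.953% lower and 1.23% higher of all genes. The difference between scaffold and enzyme genes was not tested. Of 4 genes of mitochondrial tRNA amidation and formylation, Gatc and Gatb, subunits of the amidotransferase that acts after Ears2, had the smallest p, at -0.16 and -0.22. Of 20 mitochondrial ribosomal proteins, Mrps5 (-0.27, adjusted p = 0.208, limma) and Mrpl1 (-0.24) had the smallest p, and the median was -0.07. The other lists without a call were 5 synthetase-like and proofreading genes (smallest p for Tarsl2, a threonine synthetase paralogue, -0.31, and Dtd2, which removes D-amino acids from tRNA, -0.12), 4 genes of selenocysteine tRNA (Pstk, -0.26, and Secisbp2, -0.19), 5 cytosolic elongation factors (Eef1b2, 0.20, and Eef1a1, 0.16) and 8 mitochondrial translation factors (Gfm1, -0.18, and Mtif2, -0.23).

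Of 6 genes of tRNA maturation and export, 1 was called. Xpot, which exports tRNA from the nucleus, averaged 2250 ± 235 in TFBTBOA-Glut and 3346 ± 368 in Veh-Glut (SD, n = 3 each) and fell by 0.57 (SE 0.11, adjusted p = 0.0205, limma). For Veh-Glut over Veh-Veh its log2 fold change was 0.42 (adjusted p = 0.156, limma).

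Of 24 amino acid response genes that passed the filter (of 25 listed), 11 fell and none rose in TFBTBOA-Glut against Veh-Glut, and 5 rose and none fell in Veh-Glut against Veh-Veh, with medians of -0.44 and 0.38. Over all genes, 0.953% fell and 1.23% rose in TFBTBOA-Glut against Veh-Glut, and 0.133% rose and 0.0280% fell in Veh-Glut against Veh-Veh. Asns, asparagine synthetase, averaged 4078 ± 293 in TFBTBOA-Glut and 7620 ± 554 in Veh-Glut (SD, n = 3 each; log2 fold change -0.90, adjusted p = 0.00038, limma). Its Veh-Glut mean of 7620 ± 554, against 4580 ± 623 in Veh-Veh, gave a log2 fold change of 0.74 (adjusted p = 0.0204, limma). Shmt2 and Mthfd2 of mitochondrial one-carbon metabolism, Aldh18a1 of proline synthesis and Slc7a5, a leucine transporter, were called in both, and Chac1, Nupr1, Eif4ebp1, Psat1, Slc3a2 and Slc7a1 only for TFBTBOA-Glut against Veh-Glut, a difference between comparisons that was not tested here. The Atf4 transcript itself, named here after its values were seen, was not called in any comparison, at 1257 ± 176 in TFBTBOA-Glut, 1082 ± 64.4 in TFBTBOA-Veh, 1239 ± 30.2 in Veh-Glut and 1189 ± 27.6 in Veh-Veh (SD, n = 3 each). Of the 8 mitosis genes, Top2a and Ccnb1 fell in TFBTBOA-Glut against Veh-Glut, by 0.44 and 0.38 (adjusted p = 0.0237 and 0.0187, limma), against 0.953% of all genes.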

How the data were processed

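RNA of 12 wells was made into libraries with SMART-Seq HT and sequenced as paired reads. The values deposited by the authors are a signal: read counts for GENCODE M14 genes, each divided by the DESeq size factor of its library. Per the methods, reads were filtered at Q20, ribosomal, mitochondrial and PhiX reads were removed, and the build was GRCm38p4, whereas the submitters' processing notes name GRCh38, HISAT2 2.0.6, CASAVA 1.8.2, Subread and featureCounts. Counting used stranded mode on a kit that does not mark strand. All 12 libraries were mapped from their labels.

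From these values, log2(normalized count + 1) was tested with limma 3.58.1 (trended, two-sided, R 4.3.3) on the 6 libraries of each pairwise comparison, and on all 12 for the difference between glutamate effects, over 14266 genes with a mean of at least 10, with Benjamini-Hochberg adjustment at 0.05. Fold changes are on this scale. Per-kb levels divide by the merged length of all annotated exons of a gene from GENCODE M21. Whole reads (within 0.05 of a whole number) were recovered for 100% of values in all 12 libraries by dividing each by its smallest value above 0, and edgeR 4.0.16 and DESeq2 1.42.0 were run on them. In TFBTBOA-Veh replicates 2 and 3 that value was within 1% of 1. Counting depth limits the precision of the lower mitochondrial members. The scripts were tested on simulated data.

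Alternatives were other pseudocounts (0.5 and 5), no filter, a minimum mean of 50, all libraries in one fit, a replicate block, TMM scaling, the count tools, each library left out, class sums without the most abundant member or without Gars and Kars, and a stricter motif. All members are accounted for; full statistics are given for those past the threshold and for the member of smallest p in a class with no call, and of each other list the genes past the threshold or else the pair of smallest p are named. The members and lists were chosen with earlier results of these data known. Protein sequences were not used here.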

Additional observations from a re-analysis of the deposited data

Results flagged for a closer look

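Ears2, the mitochondrial glutamate enzyme, had glutamate effects of opposite sign, neither of which passed. Without the inhibitor all Veh-Glut wells were above all Veh-Veh wells (log2 fold change 0.37, adjusted p = 0.432, limma), as in 7.58% of all genes. With it all TFBTBOA-Glut wells were below all TFBTBOA-Veh wells (log2 fold change -0.23, unadjusted p = 0.136, limma). With the inhibitor, 8.96% of all genes had groups apart in either direction. The difference between the 2 glutamate effects was -0.60 on the log2 scale (SE 0.18), and it did not pass the limma test over all genes (adjusted p = 0.470). When each library was left out in turn, the difference ran from -0.66 to -0.52. No test for outlying wells was run on groups of 3.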

How the results depend on the processing

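For Veh-Glut over Veh-Veh, the 3 called cytosolic members became 0 with no filter, 5 at a minimum mean of 50, 0 with the replicate block and 9 with DESeq2, and 0 to 8 when a library was left out, while all genes called (23) became 39 at a minimum mean of 50, 36 with all 12 libraries in one fit, 4 with the block, 161 with DESeq2 and 0 to 139 without a library. For TFBTBOA-Glut over Veh-Glut, the 11 called cytosolic members became 1 with no filter and 4 to 12 without a library, the 1 mitochondrial member became 0 with no filter and 0 to 1 without a library, and all genes called (311) became 43 with no filter, 727 with all 12 libraries in one fit, 860 with DESeq2 and 62 to 441 without a library. For TFBTBOA-Veh over Veh-Veh, 1 cytosolic member, Vars, was called at a minimum mean of 50, with the replicate block and with DESeq2, and all genes called (147) became 23 with no filter, 325 with the block, 347 with DESeq2 and 31 to 86 without a library. For the difference between glutamate effects, 1 cytosolic member, Lars, was called with the replicate block and 3 (Lars, Nars and Yars) with DESeq2, and all genes called (2) became 0 with no filter, 14 with the block, 53 with DESeq2 and 0 to 2 without a library. With the inhibitor, genes called for glutamate (0) became 9 with no filter and 1 with DESeq2. With no filter more genes were tested, and without a library fewer wells; for the other settings the cause was not tested.

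Leaving out a library moved the class medians over these ranges: the mitochondrial median 0.085 to 0.21 for Veh-Glut over Veh-Veh, the cytosolic median -0.035 to 0.012 for TFBTBOA-Glut over TFBTBOA-Veh and -0.45 to -0.31 for TFBTBOA-Glut over Veh-Glut, and the mitochondrial median -0.17 to -0.053 for the difference between glutamate effects. No member past the threshold, and no member of smallest p in a class without a call, changed direction under any alternative run. Over all 36, members near 0 did: 2 cytosolic and 6 mitochondrial members for Veh-Glut over Veh-Veh, 12 and 9 for TFBTBOA-Glut over TFBTBOA-Veh, 2 and 4 for TFBTBOA-Glut over Veh-Glut (Farsa, Hars, Fars2, Hars2, Lars2 and Wars2), 5 and 6 for TFBTBOA-Veh over Veh-Veh and 1 and 7 for the difference between glutamate effects, with sizes up to 0.16. Same-numbered wells deviated together at correlations of -0.043 to 0.084 (median 0.025, 0 of 18 pairs over 0.1). Wells of different numbers did so at -0.11 to 0.085 (median -0.020). These small values do not decide whether the numbers pair the wells, and the main fits did not use the numbers. The class sums kept their ratios within their spread without the most abundant member and without Gars and Kars, although without Iars2 the mitochondrial sums of Veh-Glut and Veh-Veh no longer overlapped. The comparison of protein sequences was not run.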
